A study of Homo sapiens with 6 samples.

Results

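Base excision repair was followed through 10 genes: the uracil and thymine glycosylases UNG, SMUG1, TDG and MBD4, the endonuclease APEX1, the polymerase POLB, the scaffold XRCC1, the ligases LIG3 and LIG1, and the flap endonuclease FEN1. A probe set was taken where the platform annotation gave one of these symbols and no other. The 10 genes had 210 such probe sets, of which 196 had a mean above the median over all probe sets and were used, and all 10 were among the 17841 genes tested. HCT116 is an established line of human colorectal carcinoma cells, written HCT116 +/+ in the titles without the gene that the sign refers to. Its RNA was hybridised to Human Exon 1.0 ST arrays, on which a gene is read by several probe sets. The 6 arrays fell into 3 groups of 2: cells given Nutlin-3 (written Nutlin 3R in the titles), which releases p53 from its inhibitor MDM2, cells given 5FU (5-fluorouracil), a pyrimidine analogue that disturbs thymidylate synthesis and RNA, and control cells (treatment "none" in the labels, DMSO in the design text). The design text gives 12 h of treatment for every group, and no dose is stated. The labels do not say whether replicates came from separate cultures, so the p-values measure the spread between these samples only, which may be technical.

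In base excision repair a glycosylase lifts a damaged or misplaced base out of DNA, APEX1 nicks the backbone at the empty site, and a polymerase fills the gap. The short branch is closed by POLB with XRCC1 and LIG3, and the long branch displaces a flap that FEN1 removes before LIG1 seals the nick. Uracil, the substrate of UNG and SMUG1, enters DNA when cytosine is deaminated or when dUTP is used in place of dTTP, and 5-fluorouracil enters DNA through its own deoxynucleotide.

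Across the 10 genes, UNG and FEN1 were lower after Nutlin-3 than in control cells and lower after Nutlin-3 than after 5FU, and no gene passed the test between 5FU and control. Values are log2 RMA levels, averaged over the probe sets of a gene. Genes were tested with limma and called at an adjusted p (Benjamini-Hochberg over all 17841 genes) below 0.05. Against control, 2 of the 10 genes were called lower after Nutlin-3 and 0 higher, where 0.858% of all genes were called lower, 0.359% higher and 1.22% in either direction. At an unadjusted p below 0.05 there were 4 (UNG, APEX1, XRCC1 and FEN1), beside 10.2% of all genes. The median log2 difference of the 10 genes was -0.32, beside 0.00 over all genes, and 8 of the 10 lay below 0, beside 49.9% of all genes. The arrays did not overlap between Nutlin-3 and control in 6 of the 10 genes, all of them lower after Nutlin-3 (18.0% of all genes were lower without overlap, 16.2% higher and 34.2% either). An exact permutation test (two-sided) with 2 arrays a group reaches no p under 0.333, and the calls depend on limma's pooling of variance over genes. In bulk RNA, fewer cells with a transcript and less of it in each cell cannot be told apart.

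**Figure D1:**
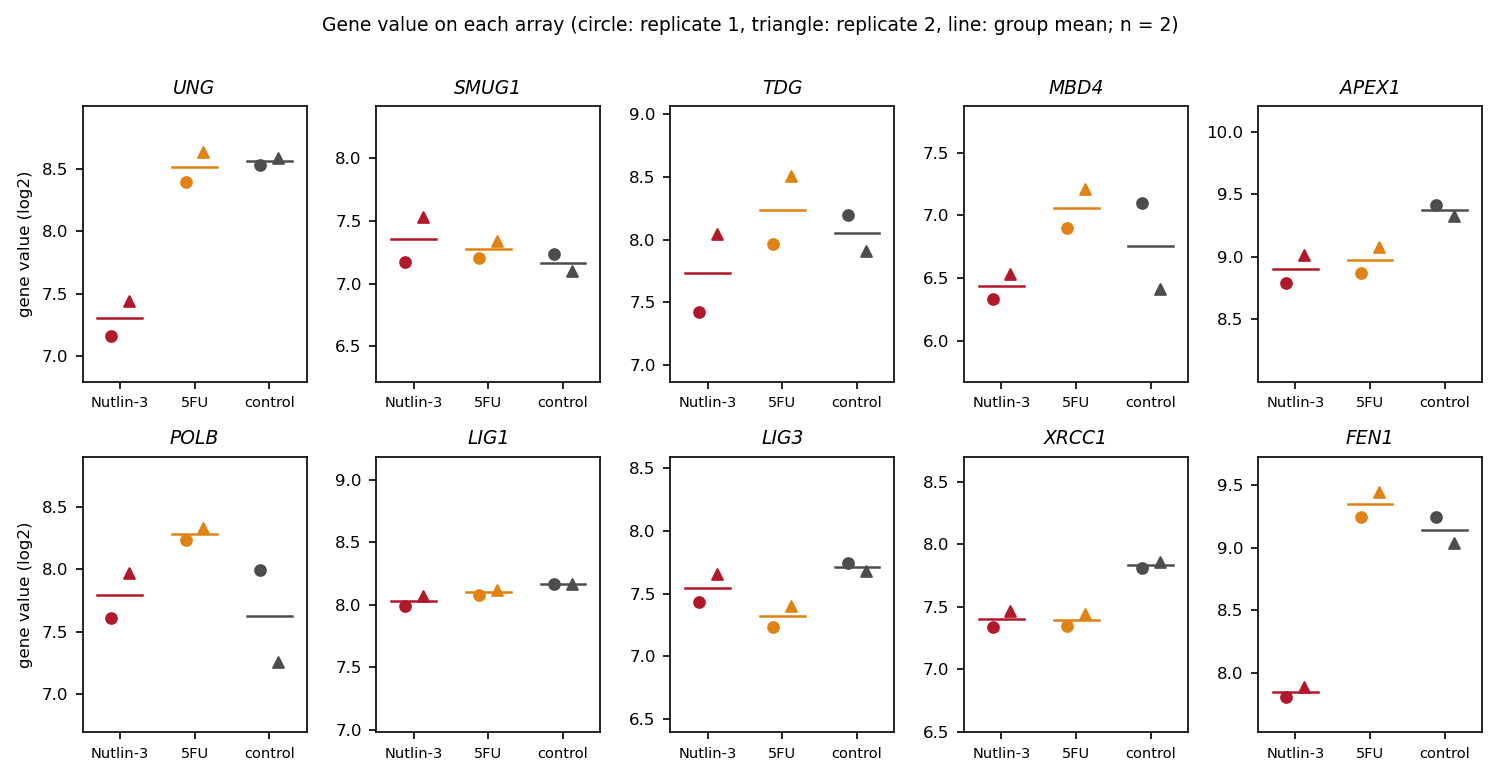
Log2 RMA level (vertical axis) of each of the 10 genes on each of the 6 arrays, with Nutlin-3, 5FU and control from left to right in every panel, a point for each array and a bar for the group mean. UNG and FEN1 have both Nutlin-3 points below every other point of their panel, with group means 1.26 and 1.29 below control.

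Known p53 targets were higher in both treated groups than in control cells, which checks the drug labels against control but does not tell Nutlin-3 and 5FU apart. CDKN1A, the p53-induced inhibitor of cyclin-dependent kinases, was at 10.39 on both Nutlin-3 arrays, at 10.12 and 10.03 on the 5FU arrays and at 8.32 and 8.27 on the control arrays. MDM2 was higher by 1.86 after Nutlin-3 (limma adjusted p = 0.00990) and by 1.57 after 5FU (limma adjusted p = 0.0283). Of 12 colonic epithelial markers, 10 lay above the probe-set median in every group (KRT20 and CEACAM5 did not), and array means of the list ran between 7.43 and 7.60. Of 8 fibroblast markers, 5 lay above the median in every group (DCN, LUM and FAP did not), and array means of the list ran between 4.86 and 5.02. Of 9 blood cell markers 6 had probe sets, and 4 of these lay above the median in every group (PTPRC and CD2 did not), with array means between 4.62 and 4.81.

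The promoters of UNG and FEN1 are shown because these were the genes that fell after Nutlin-3. UNG has 2 promoter entries in RefSeq, and its mitochondrial and nuclear forms are known to start from separate promoters. Each window holds 300 bases, 250 before and 50 after the start, in build GRCh38.p14 and read 5′ to 3′ on the plus strand. Capitals mark matches, on either strand, to TTTNNCGC (an E2F-type site), TTTGAA (a CHR-type element, bound by the cell-cycle complexes DREAM and MMB) or CCAAT (the NF-Y box).
UNG promoter 1, chr12:109097347-109097646: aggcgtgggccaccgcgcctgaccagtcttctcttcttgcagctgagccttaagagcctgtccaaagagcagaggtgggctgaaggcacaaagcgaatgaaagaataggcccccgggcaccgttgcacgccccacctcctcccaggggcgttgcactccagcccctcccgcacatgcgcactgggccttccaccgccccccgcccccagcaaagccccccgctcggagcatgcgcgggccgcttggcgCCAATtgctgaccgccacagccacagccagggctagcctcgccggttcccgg
UNG promoter 2, chr12:109097922-109098221: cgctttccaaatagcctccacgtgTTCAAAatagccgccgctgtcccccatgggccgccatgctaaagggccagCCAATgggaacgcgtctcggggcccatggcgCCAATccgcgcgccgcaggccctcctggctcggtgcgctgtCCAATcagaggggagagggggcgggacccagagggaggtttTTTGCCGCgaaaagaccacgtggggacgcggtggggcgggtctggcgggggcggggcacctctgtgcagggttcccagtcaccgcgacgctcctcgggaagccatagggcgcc
FEN1 promoter, chr11:61792661-61792960: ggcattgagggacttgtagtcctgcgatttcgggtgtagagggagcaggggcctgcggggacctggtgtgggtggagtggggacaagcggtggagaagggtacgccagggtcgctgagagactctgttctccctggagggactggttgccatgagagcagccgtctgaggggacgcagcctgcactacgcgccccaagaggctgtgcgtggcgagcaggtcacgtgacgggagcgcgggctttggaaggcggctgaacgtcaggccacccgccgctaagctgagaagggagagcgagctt
The first UNG window held 1 CCAAT, which began 2 bases before the start. The second UNG window held TTTGCCGC 63 bases before the start, TTTGAA on the minus strand 226 bases before it, and CCAAT at 176, 145 and 104 bases before it. None of the letters searched occurred in the FEN1 window. Of the other genes with an entry, MBD4 held 2 CCAAT matches, TDG and APEX1 held 1 CCAAT each, LIG1 held TTTCCCGC, XRCC1 held TTTGAA and CCAAT, and LIG3 held none. Of 35116 promoters of the same length, 6.89% held TTTNNCGC, 15.2% held TTTGAA and 34.6% held CCAAT on either strand. The table has no entry for SMUG1 or POLB.

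Among the glycosylases, UNG, the main enzyme that removes uracil from DNA, had 7.16 and 7.44 on the Nutlin-3 arrays, 8.39 and 8.63 on the 5FU arrays and 8.53 and 8.59 on the control arrays. Both Nutlin-3 arrays lay below all 4 others, and the 5FU and control arrays overlapped. The difference between Nutlin-3 and control was -1.26 (95% interval -1.63 to -0.88), a level 2.39-fold lower, with a limma adjusted p of 0.0193. Between 5FU and control it was -0.05 (95% interval -0.42 to 0.33, limma adjusted p = 0.975). The Nutlin-3 and 5FU arrays, compared directly, differed by -1.21 (95% interval -1.58 to -0.83), a 2.31-fold lower level after Nutlin-3 with a limma adjusted p of 0.0342. The call against control was lost without control replicate 1 (limma adjusted p = 0.105), without control replicate 2 (limma adjusted p = 0.0795), without Nutlin-3 replicate 1 (limma adjusted p = 0.0985) and with the median over probe sets (limma adjusted p = 0.0610). The call against 5FU was lost without any 1 of the 6 arrays (limma adjusted p between 0.0510 and 0.321), with the median over probe sets (limma adjusted p = 0.0785) and with only these groups in the fit (limma adjusted p = 0.0513).

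SMUG1, a second uracil glycosylase that also takes oxidised pyrimidines and 5-fluorouracil, did not pass the test in any comparison. Its levels were 7.17 and 7.53 after Nutlin-3, 7.21 and 7.34 after 5FU and 7.23 and 7.10 in control cells. All 3 groups overlapped, and its differences were 0.19 between Nutlin-3 and control (95% interval -0.20 to 0.58), 0.11 between 5FU and control and 0.08 between Nutlin-3 and 5FU. The interval of UNG in the first of these comparisons lay wholly below that of SMUG1.

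TDG, which removes thymine or uracil mispaired with guanine and takes part in DNA demethylation, had 7.42 and 8.05 on the Nutlin-3 arrays, 7.96 and 8.50 on the 5FU arrays and 8.20 and 7.91 on the control arrays. The groups overlapped in every comparison, and replicates of a drug differed by more than the groups did against control. The difference was -0.32 between Nutlin-3 and control (limma adjusted p = 0.817), 0.18 between 5FU and control (limma adjusted p = 0.930) and -0.50 between Nutlin-3 and 5FU (limma adjusted p = 0.482).

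MBD4, a glycosylase with a methyl-CpG-binding domain that acts on mismatches at CpG sites, had 6.33 and 6.54 after Nutlin-3, 6.90 and 7.21 after 5FU and 7.10 and 6.41 in control cells. The Nutlin-3 arrays lay below the 5FU arrays without overlap, while the control arrays spanned nearly the whole range. Nutlin-3 and 5FU differed by -0.62 (95% interval -1.20 to -0.05), which did not pass the test (limma adjusted p = 0.340). The differences from control were -0.32 for Nutlin-3 and 0.30 for 5FU, and neither passed.

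Downstream of the glycosylases, APEX1, the main endonuclease at abasic sites, had 8.79 and 9.02 after Nutlin-3, 8.87 and 9.08 after 5FU and 9.41 and 9.33 in control cells. All 4 drug arrays were below both control arrays. The differences of -0.47 for Nutlin-3 (95% interval -0.82 to -0.11, limma adjusted p = 0.312) and -0.39 for 5FU (95% interval -0.75 to -0.04, limma adjusted p = 0.407) did not pass the test. Both drug groups are set against the same control arrays.

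XRCC1, the scaffold that holds POLB and LIG3 at a break, showed the same arrangement. Its levels were 7.34 and 7.47 after Nutlin-3, 7.35 and 7.45 after 5FU and 7.81 and 7.86 in control cells, again with all 4 drug arrays below both control arrays. The differences were -0.43 for Nutlin-3 (95% interval -0.74 to -0.12, limma adjusted p = 0.282) and -0.43 for 5FU (95% interval -0.75 to -0.12, limma adjusted p = 0.294). Nutlin-3 and 5FU differed by 0.01 (95% interval -0.30 to 0.32).

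POLB, which fills the single-nucleotide gap and trims the sugar remnant, was at 7.61 and 7.97 after Nutlin-3, at 8.23 and 8.33 after 5FU and at 7.99 and 7.26 in control cells. The 5FU arrays lay above all 4 others, and the control arrays were the farthest apart of any pair in the 10 genes (SD 0.52, n = 2). The difference between 5FU and control was 0.65 (95% interval 0.06 to 1.25, limma adjusted p = 0.413), and that between Nutlin-3 and control was 0.16 (limma adjusted p = 0.925). Neither passed the test.

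LIG3, the ligase of the short branch and of mitochondrial DNA, had 7.43 and 7.66 after Nutlin-3, 7.23 and 7.40 after 5FU and 7.75 and 7.68 in control cells. The control arrays were highest and the 5FU arrays lowest, with no overlap between any of the groups. The differences from control were -0.17 for Nutlin-3 (limma adjusted p = 0.826) and -0.39 for 5FU (95% interval -0.74 to -0.05, limma adjusted p = 0.393), and neither passed the test. LIG1, which seals Okazaki fragments and the long branch, had 7.99 and 8.07 after Nutlin-3, 8.08 and 8.12 after 5FU and 8.17 on both control arrays. Its differences from control were -0.14 for Nutlin-3 (95% interval -0.43 to 0.16) and -0.07 for 5FU (95% interval -0.36 to 0.23). The 3 groups of LIG1 did not overlap, although its group means differed by less than those of any other of the 10 genes.

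FEN1, the nuclease that removes flaps in long-patch repair and from Okazaki fragments, had 7.81 and 7.89 after Nutlin-3, 9.25 and 9.44 after 5FU and 9.24 and 9.04 in control cells. Both Nutlin-3 arrays lay below all 4 others, and both 5FU arrays above both control arrays. The difference between Nutlin-3 and control was -1.29 (95% interval -1.64 to -0.95), a 2.45-fold lower level with a limma adjusted p of 0.0136. Nutlin-3 and 5FU differed by -1.50 (95% interval -1.85 to -1.16), a 2.83-fold lower level after Nutlin-3 with a limma adjusted p of 0.0147. The difference between 5FU and control, 0.21 (95% interval -0.14 to 0.55), did not pass the test (limma adjusted p = 0.753). The call against control was lost without control replicate 1 (limma adjusted p = 0.0856) and without Nutlin-3 replicate 1 (limma adjusted p = 0.0819). The call against 5FU was lost without Nutlin-3 replicate 1 (limma adjusted p = 0.0884), without 5FU replicate 1 (limma adjusted p = 0.0618) and without 5FU replicate 2 (limma adjusted p = 0.145).

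**Figure D2:**
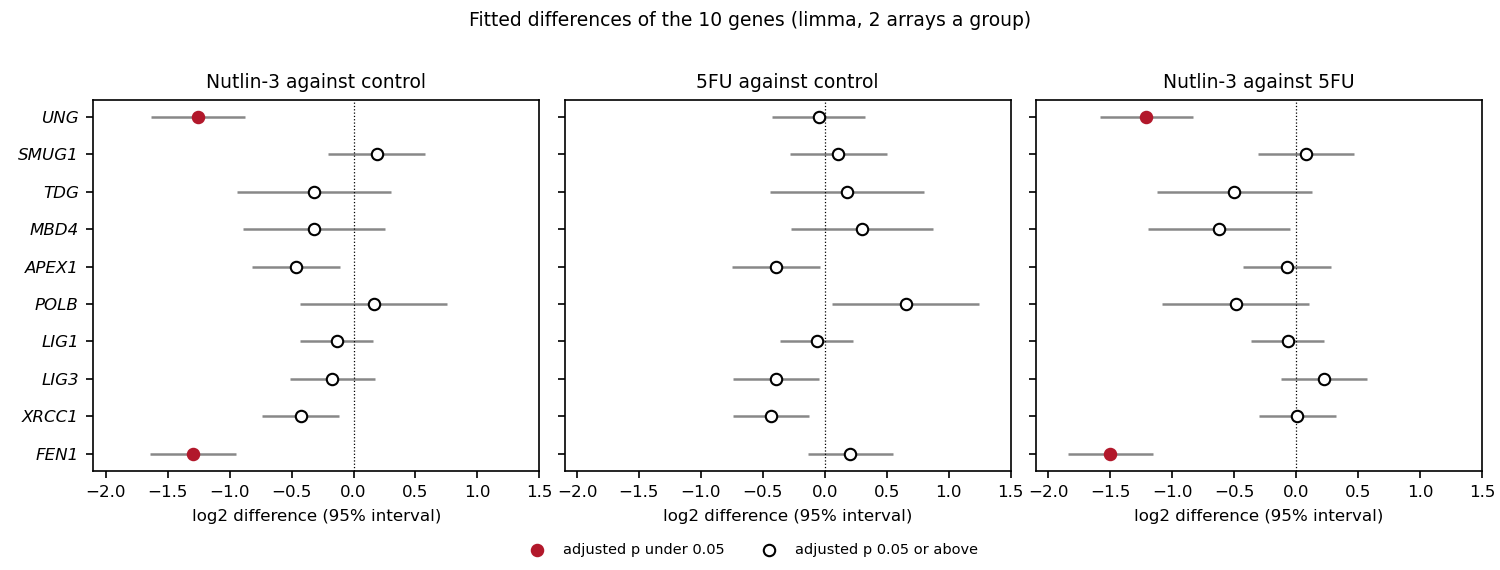
Fitted log2 difference (horizontal axis, zero marked) of each of the 10 genes with its 95% interval in each of the 3 comparisons, filled where the limma adjusted p is below 0.05. Only UNG and FEN1 are filled, at -1.26 and -1.29 against control and at -1.21 and -1.50 against 5FU.

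Between 5FU and control, 0 of the 10 genes were called by limma, where 0.448% of all genes were, 0.118% lower and 0.331% higher. At an unadjusted p below 0.05 there were 4, namely APEX1, LIG3 and XRCC1 with lower and POLB with higher levels after 5FU, beside 10.7% of all genes. The arrays did not overlap in 4 genes lower after 5FU (18.0% of all genes) and 2 higher (20.0% of all genes, with 38.0% in either direction). The median difference was 0.03, and 5 of the 10 lay below 0, beside 49.7% of all genes. Between Nutlin-3 and 5FU, 2 of the 10 were called lower after Nutlin-3 and 0 higher, where 0.572% of all genes were called lower, 0.0617% higher and 0.633% in either direction. At an unadjusted p below 0.05 MBD4 joined them, which made 3, beside 13.3% of all genes. The arrays did not overlap in 5 genes lower after Nutlin-3 (25.2% of all genes) and 1 higher (20.8% of all genes, with 46.0% in either direction). The median was -0.28, beside -0.01 over all genes, and 7 of the 10 lay below 0, beside 50.8% of all genes. The 3 comparisons share arrays pairwise, so their counts are not independent of each other.

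After Nutlin-3, the observed differences from control ran from -2.18 to 0.03 over the probe sets of UNG. All 15 were used, and 14 of them had a difference from control below 0, with 10 at -1 or lower. The lowest difference was -2.18, at probe set 3430943, which read 7.76 and 8.39 after Nutlin-3, 9.91 and 10.36 after 5FU and 10.18 and 10.33 in control cells. At the other end, probe set 3430932 read 8.91 and 8.95 after Nutlin-3, 8.99 and 8.90 after 5FU and 8.66 and 9.15 in control cells, a difference of 0.03. Probe sets 3430927, 3430931 and 3430933 also overlapped between Nutlin-3 and control, with differences of -0.08, -0.19 and -0.02. These 4 are among the first 5 by number, and probe set 3430928 between them had -1.73. They were singled out after their values were seen, and exon positions of probe sets are not used here, so they are not assigned to either UNG promoter.

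A test of unequal probe sets within a gene (diffSplice in limma) called UNG between Nutlin-3 and control (adjusted p = 0.000389), where it called 1.23% of 16875 genes. It also called UNG between Nutlin-3 and 5FU (diffSplice adjusted p = 1.15e-05), where it called 2.43% of genes. Between 5FU and control it called none of the 10 genes (1.33% of all genes, UNG adjusted p = 1). The first call was lost without control replicate 1 (adjusted p = 0.485) or Nutlin-3 replicate 1 (diffSplice adjusted p = 0.108), and the second without 5FU replicate 2 (diffSplice adjusted p = 0.188). On simulated data this test made more false calls than its threshold allows where probe sets varied unequally. It also pools the spread over the probe sets of a gene and treats them as independent, although they share each array. Its p-values thus count probe sets as if they were replicates and may be too small. For single probe sets, diffSplice called 2 of UNG between Nutlin-3 and 5FU and 0 between Nutlin-3 and control. The share over all probe sets was not counted, so these calls are not read as a result about UNG. Tested one by one with limma, 0 of 705699 probe sets above the median were called between Nutlin-3 and control. Between Nutlin-3 and 5FU that test called 10 of them. A test stricter than diffSplice, of each probe set against the mean of the other probe sets of its gene, called 0 of 266194 probe sets by limma in any comparison. The limma unadjusted p was below 0.05 for 13527 between Nutlin-3 and control, 14284 between 5FU and control and 17547 between Nutlin-3 and 5FU. With 2 arrays a group, 0 calls do not show that probe sets moved alike.

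FEN1 had 16 probe sets, all used, in 2 runs of numbers. Those from 3333228 to 3333237 fell among probe sets of genes of chromosome 11, where RefSeq places FEN1, and 5 of the 10 genes that flank FEN1 were among these neighbours. Those from 2346374 to 2346388 fell among probe sets of chromosome 1, where RefSeq lists the pseudogene FEN1P1, so they may read either sequence. On the chromosome 11 run FEN1 had 7.75 and 8.10 after Nutlin-3, 9.34 and 9.52 after 5FU and 9.36 on both control arrays, a difference of -1.43 between Nutlin-3 and control (limma adjusted p = 0.0139). On the other run it had 7.86 and 7.67 after Nutlin-3, 9.16 and 9.37 after 5FU and 9.12 and 8.72 in control cells, a difference of -1.16 (limma adjusted p = 0.0365). FEN1 was called lower on each run alone, and the Nutlin-3 arrays stayed below the others on both. The fits of FEN1 and TDG by run were added after the data were seen. Both runs are read on the same arrays, so neither is a separate check of the other.

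Within FEN1, 15 of the 16 probe sets had a difference below 0 between Nutlin-3 and control, and 12 were at -1 or lower. The lowest, 3333237, had -2.43, with 5.40 and 6.49 after Nutlin-3, 8.11 and 8.42 after 5FU and 8.63 and 8.13 in control cells. The exception was 3333228, the first of its run, with 7.56 and 7.12 after Nutlin-3, 7.50 and 7.34 after 5FU and 6.86 and 7.18 in control cells, a difference of 0.32 with overlapping groups. As a single probe set, 3333228 was called by diffSplice between Nutlin-3 and control (diffSplice adjusted p = 0.00877) and between Nutlin-3 and 5FU (diffSplice adjusted p = 0.0224). The share of all probe sets called was not counted, and the limits given for diffSplice under UNG hold here too. The limma test of each probe set against the rest of its gene called 0 of 266194 in either comparison. For the gene as a whole, the diffSplice test called FEN1 between Nutlin-3 and control (adjusted p = 0.00670) and between Nutlin-3 and 5FU (adjusted p = 0.0253). The first call was lost without any 1 array other than Nutlin-3 replicate 2 (diffSplice adjusted p between 0.0504 and 1), and the second without Nutlin-3 replicate 1 (adjusted p = 1), 5FU replicate 1 (adjusted p = 0.426) or 5FU replicate 2 (adjusted p = 1).

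**Figure D3:**
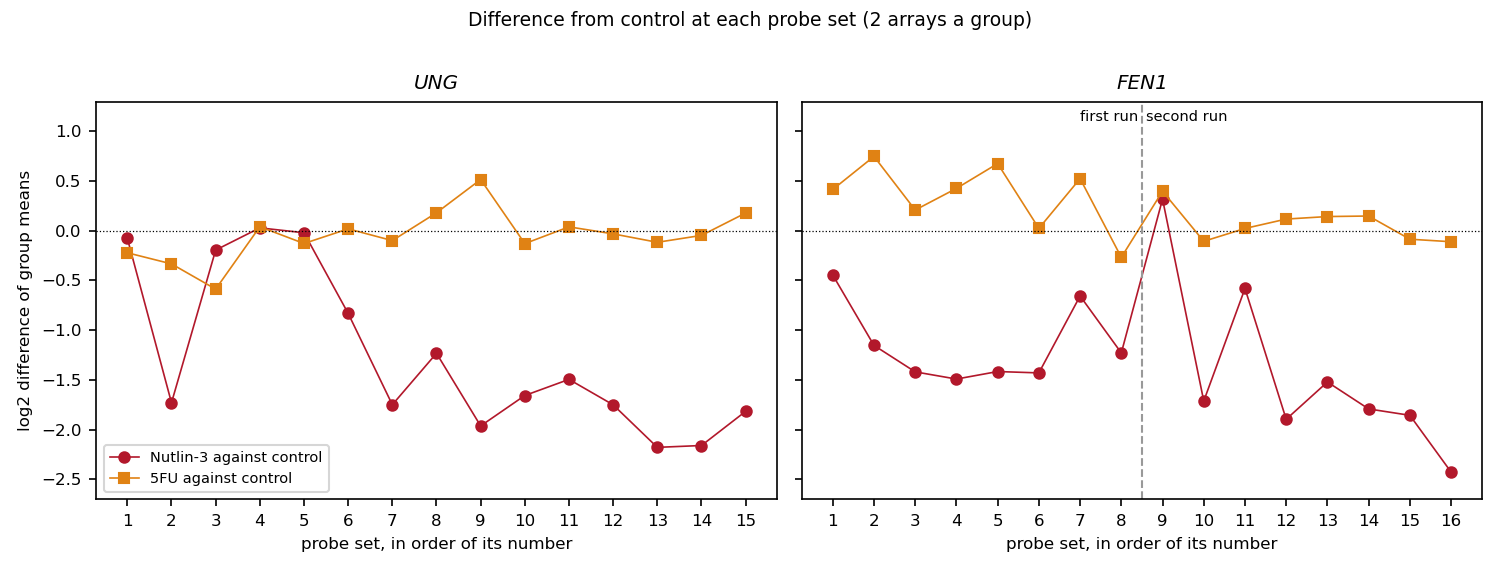
Log2 difference from control (vertical axis) of each used probe set of UNG (15) and FEN1 (16), in order of probe set number, for Nutlin-3 and for 5FU. The Nutlin-3 points lie at -1 or lower in 10 of 15 UNG and 12 of 16 FEN1 probe sets, with 4 of the first 5 UNG probe sets near 0 and 1 FEN1 probe set at 0.32, while the 5FU points lie between -0.59 and 0.75; the dashed line parts the 2 runs of FEN1 probe sets.

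None of the other 8 genes was called by diffSplice in any comparison. After Nutlin-3, all 11 used probe sets of APEX1 were below control, with differences between -1.16 and -0.06, and 20 of 22 of XRCC1 were, between -1.31 and 0.36. After 5FU, 10 of 11 in APEX1, 22 of 22 in XRCC1 and 27 of 33 in LIG3 were below control. POLB had 14 of 15 above control after 5FU, up to 1.16, and 12 of 15 above control after Nutlin-3, up to 0.53. SMUG1 had 9 of 14 above control after Nutlin-3, and its range of -0.11 to 1.17 held 1 probe set at or above 1. In LIG1, with 36 probe sets, differences between Nutlin-3 and control ran from -0.61 to 0.43, with 23 below 0 and 13 above. MBD4 had 12 of 15 below control after Nutlin-3 (-1.71 to 0.35) and 13 of 15 above control after 5FU (-0.11 to 0.97). Probe sets of a gene share each array, so these counts describe the arrays and are not replicates.

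TDG had 15 of 19 probe sets below control after Nutlin-3, between -0.80 and 0.06, and 14 of 19 above control after 5FU. Its 21 annotated probe sets fell in 3 runs of numbers, of 1, 7 and 13. RefSeq places TDG on chromosome 12, but the single probe set 3373603 fell among probe sets of chromosome 11. The run of 7 fell among probe sets of chromosome 12, with 0 of the 10 genes that flank TDG among its neighbours. RefSeq also lists the pseudogene TDGP1 on chromosome 12, so part of the signal is uncertain. On the run among its flanking genes, TDG had 7.62 and 8.10 after Nutlin-3, 8.12 and 8.65 after 5FU and 8.24 and 8.07 in control cells. The difference between Nutlin-3 and control on that run was -0.29 (limma adjusted p = 0.810).

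Replicates within a group differed in a shared direction across the 10 genes. Replicate 1 was below replicate 2 in all 10 genes in the Nutlin-3 group, by a median of 0.23, and in all 10 in the 5FU group, by a median of 0.18. In the control group replicate 1 was above replicate 2 in 8 of the 10, by a median of 0.11 over all 10. Over all 17841 genes replicate 1 was the higher in 7221 for Nutlin-3, in 7048 for 5FU and in 9415 for control. The calls of UNG and FEN1 were lost without some single arrays, as given with each gene.

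**Figure D4:**
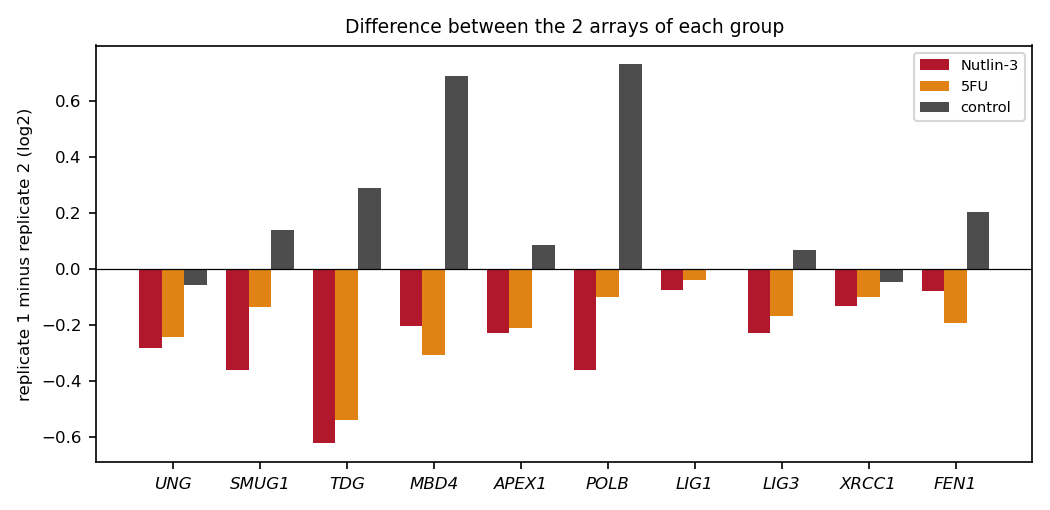
Difference between the 2 arrays of each group (replicate 1 minus replicate 2, log2, vertical axis) for each of the 10 genes, with bars for Nutlin-3, 5FU and control from left to right. All Nutlin-3 and 5FU bars point below 0, and the widest bars are those of MBD4 and POLB in control and of TDG after Nutlin-3 and 5FU.

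For the genes whose group means spanned at least 0.5 log2 units, the 3 genes nearest in pattern were found by root-mean-square distance over the 6 arrays, after each gene was centred on its own mean. Nearest to UNG were FOXM1, a transcription factor of mitotic genes, at 0.0575 log2 units, WEE1, the kinase that restrains CDK1, at 0.0710, and GINS3, a subunit of the replicative helicase complex, at 0.0859. Nearest to FEN1 were MYBL2, a subunit of the MMB complex, at 0.0724, DDIAS at 0.0731 and CHAF1B, a subunit of the histone chaperone CAF-1, at 0.0824. MBD4 was nearest to C5orf22 at 0.0307, PHAX at 0.0391 and CD47 at 0.0441. POLB was nearest to CHMP4C at 0.0471, GSK3B at 0.0541 and MCFD2 at 0.0545. With 6 arrays in 3 groups, many genes can lie this close, and the order within these lists was not tested.

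The rest of the pathway was read from 24 further base excision repair genes. Against control, 2 of the 24 were called lower after Nutlin-3 and 0 higher (0.858% and 0.359% of all genes), and the median difference was -0.20. The arrays did not overlap in 12 genes lower (18.0% of all genes) and 3 higher (16.2% of all genes), and 9 of the 24 had an unadjusted p below 0.05 (10.2% of all genes). NEIL3, a glycosylase for oxidised bases in single-stranded DNA that is known to be made in dividing cells, had 6.29 and 6.19 after Nutlin-3, 7.23 and 7.44 after 5FU and 8.04 and 7.33 in control cells. Its Nutlin-3 arrays lay below all 4 others, with a difference from control of -1.45 (SE 0.23, limma adjusted p = 0.0406). DNA2, a nuclease and helicase that cuts long flaps, had 5.64 and 6.04 after Nutlin-3, 7.05 and 7.41 after 5FU and 7.22 and 6.95 in control cells. It too was lowest on both Nutlin-3 arrays, by -1.25 from control (95% interval -1.73 to -0.77, limma adjusted p = 0.0409) and by -1.40 from 5FU (limma adjusted p = 0.0442). Both calls of DNA2 were lost without any 1 of the 6 arrays (limma adjusted p up to 0.222 against control and up to 0.347 against 5FU). The call of NEIL3 was lost without any 1 array other than control replicate 2 (limma adjusted p up to 0.146), and with all probe sets (limma adjusted p = 0.0604) or only these groups in the fit (limma adjusted p = 0.0594). DNA2 was likewise lost with all probe sets, with the median or with only these groups (limma adjusted p between 0.0514 and 0.0722 over both comparisons). These lists are not complete. Of 16 alternatives, NEIL3 kept its call against control in 8, and DNA2 kept its call in 6 against control and in 6 against 5FU. With the replicate block, 0 of 17841 genes were called between Nutlin-3 and 5FU, DNA2 among those lost.

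Between 5FU and control, 0 of the 24 were called by limma (0.448% of all genes), with 4 at an unadjusted p below 0.05 (10.7% of all genes), and the median was 0.04. Between Nutlin-3 and 5FU, 1 was called lower, DNA2 (0.572% of all genes), 11 had an unadjusted p below 0.05 (13.3% of all genes), and the median was -0.29. PCNA, the sliding clamp of replication and long-patch repair, had 8.45 and 9.16 after Nutlin-3, 9.54 and 9.92 after 5FU and 9.09 and 8.91 in control cells. Its 5FU arrays lay above all 4 others, but neither the difference of 0.73 from control (limma adjusted p = 0.369) nor that of -0.92 between Nutlin-3 and 5FU (limma adjusted p = 0.192) passed the test.

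**Figure D5:**
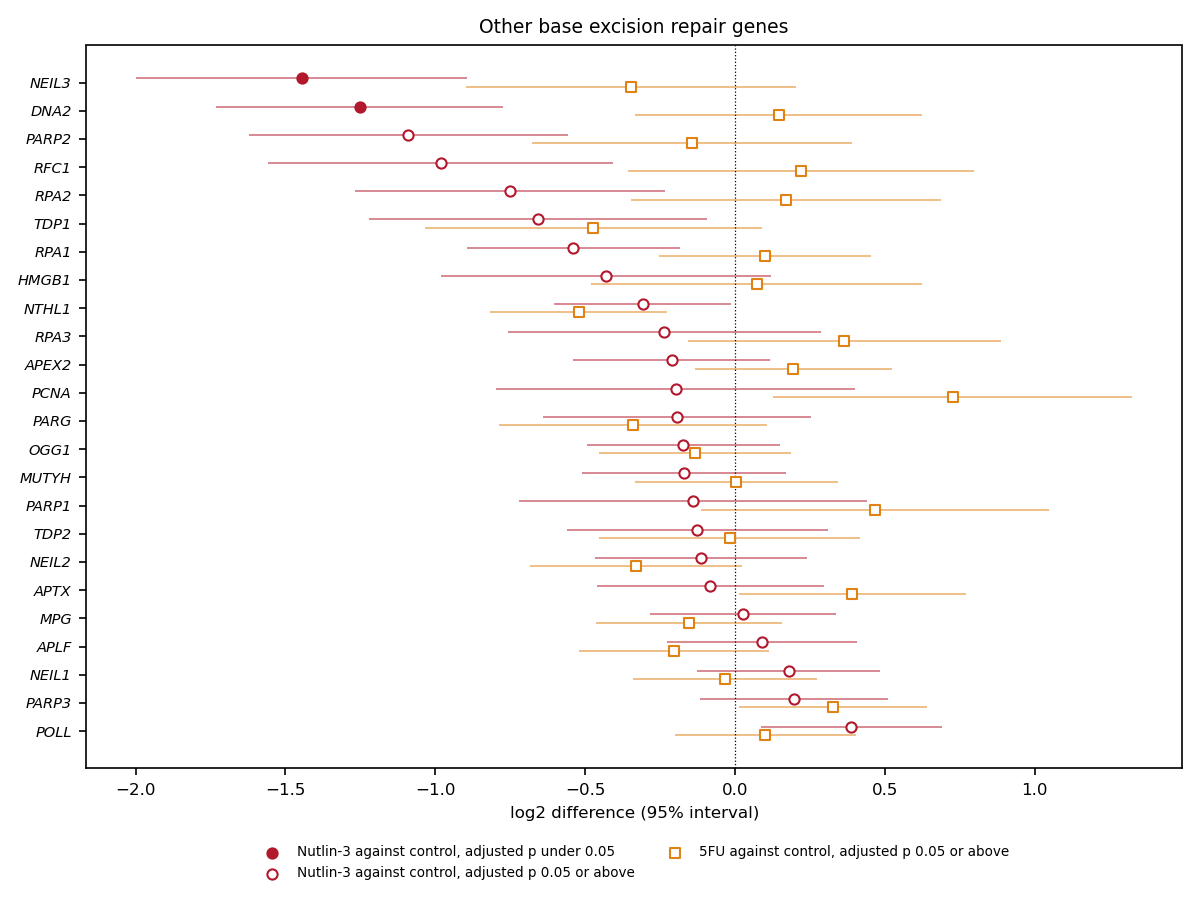
Fitted log2 difference from control (horizontal axis) with 95% interval for the 24 further base excision repair genes, for Nutlin-3 (circles) and 5FU (squares), filled where the limma adjusted p is below 0.05. NEIL3 at -1.45 and DNA2 at -1.25 are the filled points.

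Of 5 genes that set the supply of uracil and thymine nucleotides, 0 were called by limma in any comparison. At an unadjusted p below 0.05 there were 2 between Nutlin-3 and control (10.2% of all genes), 0 between 5FU and control (10.7%) and 2 between Nutlin-3 and 5FU (13.3%). DUT, which destroys dUTP before it can enter DNA, had 6.63 and 7.24 after Nutlin-3, 7.40 and 7.83 after 5FU and 7.87 and 7.51 in control cells. The Nutlin-3 arrays lay below all others, by -0.76 from control (limma adjusted p = 0.340), and the 5FU and control arrays overlapped. TYMS, the thymidylate synthase that 5FU metabolites inhibit, had 10.02 and 10.34 after Nutlin-3, 10.44 and 10.59 after 5FU and 10.51 and 10.38 in control cells, with differences from control of -0.27 for Nutlin-3 and 0.07 for 5FU that did not pass the test.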

How the data were processed

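RNA of 6 arrays was analysed. The authors deposited 1 log2 value for each probe set and array, made with RMA per the submitters' processing notes. The version of RMA, the genome build and any array batches are not stated. The extraction kit is PicoPure per the labels' protocols and RNeasy in the design text. RMA sets all arrays to 1 distribution and keeps no detection call, and precision is limited by the number of arrays.

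Groups came from the titles. Gene names are those of the platform annotation, updated through RefSeq (GRCh38.p14): 357604 had 1 symbol, 15322 several and 1038473 none. A gene's value was the mean of its probe sets with a mean above 4.73, the median over probe sets, at least 2. limma 3.58.1 in R 4.3.3 (lmFit, eBayes, no block) fitted the 3 groups together, with Benjamini-Hochberg adjustment over 17841 genes. diffSplice used genes with at least 3 probe sets. Both were tested on simulated data with independent noise on every array and, for diffSplice, on every probe set. The simulation thus held no deviations shared between arrays or between probe sets of a gene. It does not check the error rate where these occur. Same-numbered arrays deviated with correlations across genes of -0.56 (Nutlin-3 and control), -0.52 (5FU and control) and 0.63 (Nutlin-3 and 5FU). Equal numbers thus went together between the drugs and in opposite directions against control. The reported fit has no block and does not model this shared deviation. All 10 genes were named. From the further lists, called genes, PCNA, DUT, TYMS and NEIL3 were named. Promoters were considered for genes whose group means spanned at least 0.5, and printed for UNG and FEN1. The genes and lists were chosen with earlier results of these data known. Alternatives covered the probe-set filter, the summary, scaling, variance model, groups fitted, replicate block and leaving out each array.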

Additional observations from a re-analysis of the deposited data

How the results depend on the processing

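Between Nutlin-3 and control, the count of 2 of the 10 genes became 1 (FEN1) with the median over probe sets, 0 with the replicate block (UNG adjusted p = 0.0784, FEN1 0.0891) and 0 to 2 with each array left out; it stayed at 2 under the other planned settings. Genes called in all, 217, became 380 with upper-quartile probe sets, 381 with arrays centred on their medians, 514 with quantile normalization, 2 with the block and 5 to 149 with an array left out. Among the 10 genes, the count with unequal probe sets by diffSplice, 2, became 1 with only these groups in the fit and 1 with the block. That count also varied with the array left out.

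Between 5FU and control, 0 of the 10 genes were called under every planned setting. Genes called in all, 80, became 151 with upper-quartile probe sets, 39 with the median, 177 centred, 242 quantile-normalized, 1 with the block and 1 to 63 with an array left out.

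Between Nutlin-3 and 5FU, the count of 2 of the 10 became 1 with the median (FEN1), 1 with only these groups in the fit (FEN1), 0 with the block (UNG adjusted p = 0.142, FEN1 0.110) and 0 to 1 with an array left out. Genes called in all, 113, became 69 with all probe sets, 234 with upper-quartile probe sets, 69 with the median, 297 centred, 416 quantile-normalized, 0 with the block and 3 to 104 with an array left out. Quantile normalization gave 100 higher and 316 lower, against 11 and 102 in the reported fit. Among the 10 genes, the count with unequal probe sets by diffSplice, 2, became 1 with the block, and it varied with the array left out.

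The numbers share no stated culture or day. Crossing the control numbers, an alternative chosen after seeing the data, gave 4 of the 10 and 1788 in all for Nutlin-3 against control, 4 and 1882 for 5FU against control, and 5 and 2821 for Nutlin-3 against 5FU.

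Signs turned only for differences that had not passed the test. With an array left out, Nutlin-3 against control ran from -0.67 to 0.0243 for MBD4, -0.20 to 0.53 for POLB and -0.56 to 0.16 for PCNA. For 5FU against control the range was -0.17 to 0.0730 for UNG, -0.0914 to 0.45 for TDG, -0.0426 to 0.65 for MBD4, -0.70 to 0.00575 for NEIL3, -0.0346 to 0.32 for DNA2, -0.29 to 0.13 for DUT and -0.0100 to 0.14 for TYMS. For Nutlin-3 against 5FU it was -0.10 to 0.26 for SMUG1, -0.19 to 0.0429 for APEX1 and -0.0587 to 0.0734 for XRCC1. Quantile normalization turned APEX1 to 0.11 and LIG1 to 0.0730 for Nutlin-3 against 5FU, and TYMS to -0.0101 for 5FU against control. The cause of these shifts was not tested. UNG kept its direction under all 17 alternatives, between -1.40 and -1.11 against control, and FEN1 between -1.49 and -1.19. Changes to the variance model, groups fitted, block, probe-set minimum or 5FU arrays cannot move these differences, so there the direction was fixed in advance. The setting that split the runs of FEN1 and TDG likewise leaves UNG as it was.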
